A study of Homo sapiens with 12 samples.

Results

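The 33 Fanconi anaemia, homologous recombination and checkpoint genes described here were chosen by symbol for what their proteins do. They were chosen with earlier results of these data known, so counts of them are a description and no independent test. All 33 were found among the 54261 genes of the deposited table, with MRE11 listed under its older symbol MRE11A. Expression was measured by RNA sequencing of polyadenylated RNA from BON-1 cells. BON-1 is an established line derived from a human neuroendocrine tumour of the pancreas. The labels give 4 groups of 3 libraries: BON-1 alone, and BON-1 grown with CAFs in proportions of 10:2, 10:4 and 10:6, BON-1 first. CAF is the usual abbreviation for cancer-associated fibroblast. The labels' protocols describe flow cytometry as the means of separating BON-1 cells from mixed culture, in the same words for all 12 libraries. The sources used here do not say whether BON-1 alone passed through the same sorter, how pure the sorted cells were, how long the cultures ran or where the CAFs came from. Nothing in the labels makes the 3 libraries of a group separate cultures, so p-values measure the spread between libraries, which may be technical.

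The Fanconi anaemia pathway repairs covalent crosslinks between DNA strands. A core complex, in which FANCL carries the ubiquitin ligase activity, is brought to stalled replication forks by FANCM and attaches ubiquitin to the FANCI-FANCD2 pair, which then recruits nucleases. The breaks that follow are repaired by homologous recombination: the MRE11-RAD50-NBN complex and RBBP8 (CtIP) cut back the ends, BRCA1, BARD1, PALB2 and BRCA2 prepare the ends for strand exchange, RAD51C, XRCC2 and XRCC3 assist it, and BLM dissolves the joined molecules. In parallel ATR, held by ATRIP and switched on by TOPBP1, activates CHEK1 with the help of claspin (CLSPN), while ATM activates CHEK2 at double-strand breaks. Germline variants of CHEK2 and BRCA2 have been described in patients with pancreatic neuroendocrine tumours.

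Levels are FPKM, reads scaled to gene length and library size, and means are given ± SD over 3 libraries. Differences are taken between log2 values of FPKM + 1 and given with their SE; on this scale a change in a gene near or below 1 FPKM appears smaller than it was. A gene was tested when it reached 1 FPKM in at least 3 of the 12 libraries, which left 13312 genes and 29 of the 33 members. It was called higher or lower when the limma p-value, adjusted by Benjamini-Hochberg over all genes tested, was under 0.05. The libraries held 11703624 to 21882537 reads, and the members from 8 reads (FANCB) to 2875 reads (FANCA) in a library. The 3 comparisons with BON-1 alone share its 3 libraries, so their results for a gene are not independent of each other.

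Members of these pathways were mostly higher in co-culture than in BON-1 alone, by up to 2.79-fold in mean FPKM (ATR at 10:4), and the few that were lower kept at least 0.856 of the mean of BON-1 alone (FANCE at 10:6). Of the 29 tested members, 16 were called higher and 1 lower at 10:2, 20 and 3 at 10:4, and 17 and 4 at 10:6. Over all genes tested, 19.9% were called higher and 7.46% lower at 10:2, 27.3% and 18.1% at 10:4, and 29.7% and 18.3% at 10:6. The members' median log2 difference was 0.29 at 10:2, 0.46 at 10:4 and 0.35 at 10:6, against 0.00339, -0.0104 and 0.0193 over all genes tested. BARD1, FANCM and ATR passed the filter through co-culture libraries alone, so their passing already required a difference. With the stricter filter of 1 FPKM in all 12 libraries, 24 members remained, of which 12 were higher and 1 lower at 10:2, 15 and 3 at 10:4, and 14 and 4 at 10:6. Over the 11359 genes left by that filter the shares were 21.8% and 9.19%, 27.8% and 21.2%, and 30.7% and 21.7%.

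Quantile normalization gave 11 members higher and 2 lower at 10:2, 20 and 7 at 10:4, and 15 and 7 at 10:6. The shares over all genes were then 13.8% and 8.49%, 21.2% and 27.2%, and 21.9% and 26.9%, so the share of members called lower was near that of all genes. Limma-voom on reads recovered from the FPKM values gave 17 higher and 1 lower, 20 and 5, and 20 and 4, with 23.0% and 9.65%, 29% and 20.2%, and 31.9% and 20.4% over all genes. Against the test on FPKM it added NBN higher at 10:2, FANCC and MDC1 lower at 10:4, and FANCM, RAD50 and NBN higher and MDC1 lower at 10:6, and did not call FANCE.

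Called higher at all 3 ratios were 14 members: FANCI, FANCD2, BRCA1, BARD1, PALB2, MRE11, RBBP8, BLM, RAD51C, ATR, TOPBP1, CLSPN, CHEK1 and TP53BP1. FANCG was the 1 member called lower at all 3. The share of all genes called at all 3 ratios was not counted, and the 3 comparisons share the libraries of BON-1 alone. The direction of a member went with the base composition of its transcript. The members called higher at 10:6 had a GC content of 36.1% to 45.7% in their longest transcript, and the 4 called lower of 55.4% to 63.8%. Over 12394 genes Spearman's rho between GC content and the log2 difference was -0.676 at 10:2, -0.716 at 10:4 and -0.72 at 10:6, a description across genes that share the same libraries. So differences from BON-1 alone are also given, for most of the tested members, from values in which a smooth trend on GC content and gene length had been removed from every library.

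With those trends removed 5 members were higher and 0 lower at 10:2, 7 and 1 at 10:4, and 5 and 3 at 10:6. Over the 12394 genes with both properties known, 6.07% were then higher and 5.59% lower at 10:2, 10.7% and 12.5% at 10:4, and 11.5% and 14.0% at 10:6. The members' median went to 0.00581 at 10:2, 0.0488 at 10:4 and -0.015 at 10:6. FANCI, TOPBP1, CLSPN and TP53BP1 were the 4 members that stayed higher at all 3 ratios, and the share of all genes that did so was not counted. BARD1 stayed higher at 10:2 and 10:4, FANCD2 at 10:6, and RBBP8 and BLM at 10:4. FANCF at 10:4 and 10:6, FANCM at 10:6 and FANCA at 10:6 were lower on this scale.

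**Figure D1:**
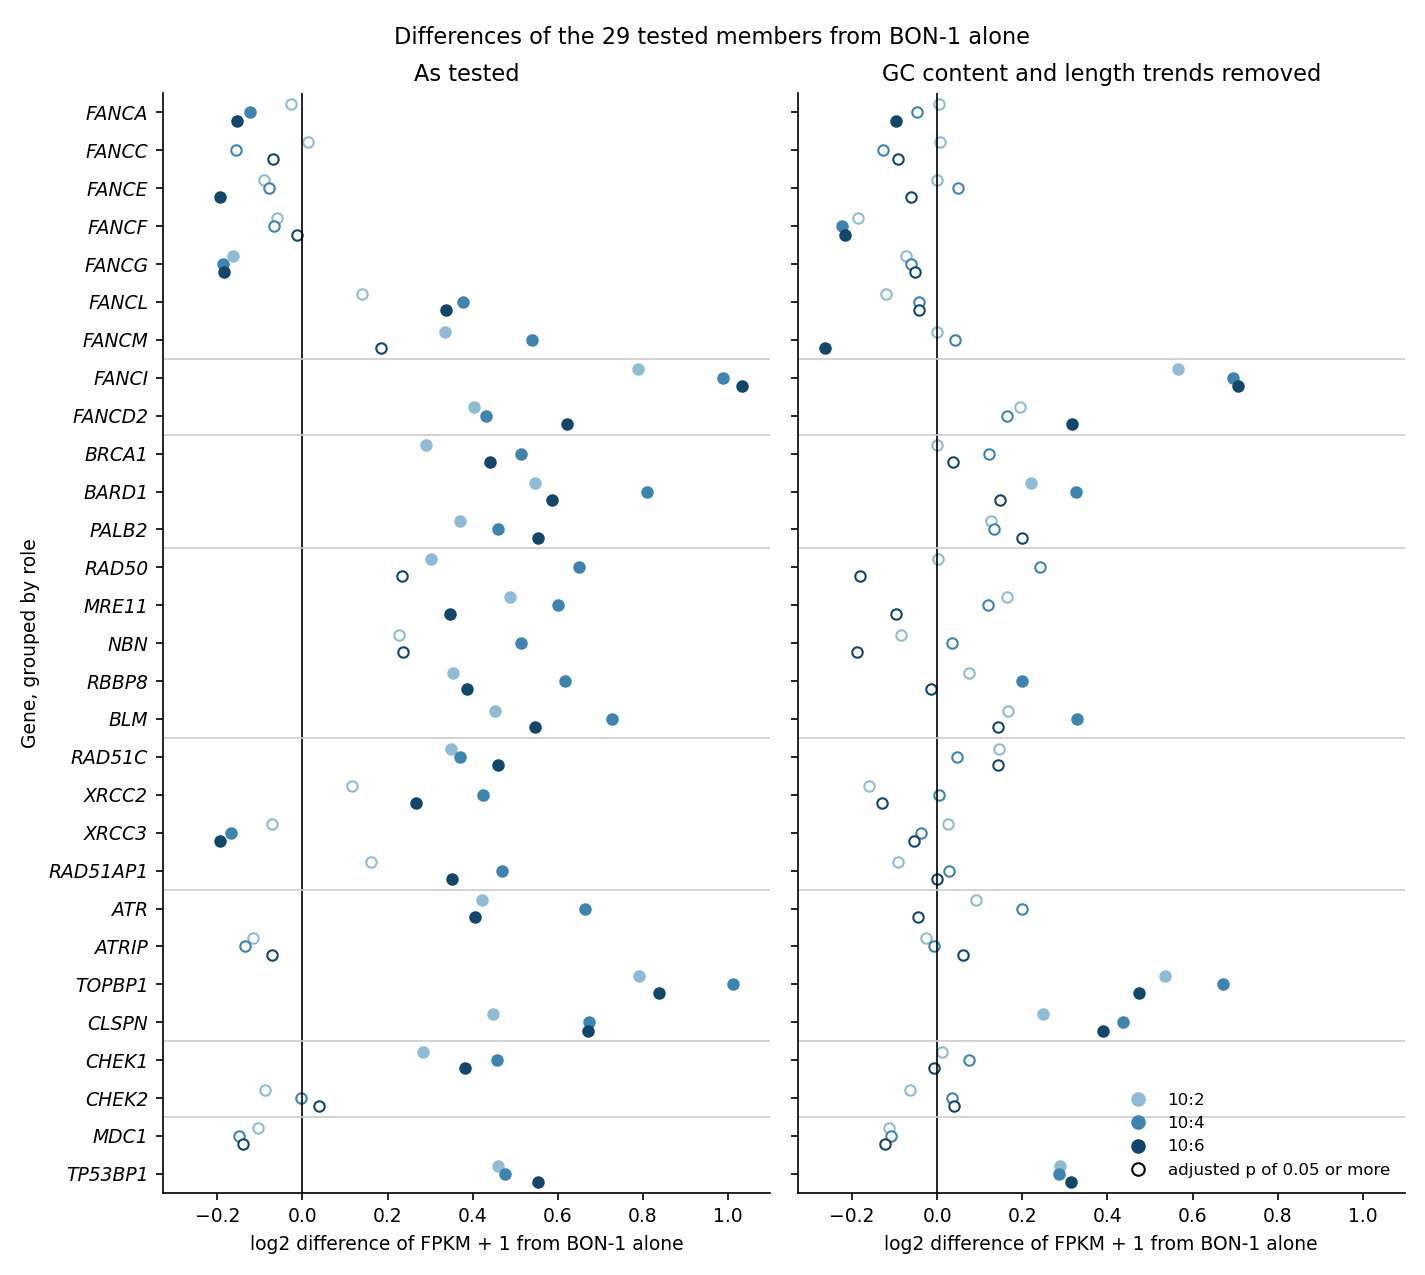
Log2 difference of FPKM + 1 from BON-1 alone for the 29 tested members, ordered by role, as tested (left) and with GC content and length trends removed (right); each point is 1 comparison of 3 with 3 libraries and filled points have an adjusted p under 0.05. The 14 members called higher at all 3 ratios on the left are 4 on the right, FANCI, TOPBP1, CLSPN and TP53BP1. The share of all genes called at all 3 ratios was not counted.

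FANCI and FANCD2, the pair that receives ubiquitin from the core complex, both rose. FANCI was at 10.3, 11.1 and 10.1 FPKM in BON-1 alone, 19.0, 17.7 and 19.9 at 10:2, 20.7, 23.0 and 21.7 at 10:4, and 23.4, 21.6 and 22.5 at 10:6. Every co-culture library lay above every library of BON-1 alone, and the libraries of 10:4 and 10:6 overlapped. The log2 difference from BON-1 alone was 0.79 at 10:2, 0.99 at 10:4 and 1.03 at 10:6, each with an SE of 0.0553 (limma adjusted p = 3.47e-06, 1.71e-07 and 1.58e-07). It was the widest of the 29 members at 10:6 and remained 0.57, 0.70 and 0.71 with the trends removed (limma adjusted p = 5.52e-05, 4.4e-06 and 4.16e-06). The gene spans 89243979 to 89317259 on chromosome 15 of GRCh38.p14.

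FANCD2 was at 4.99, 4.90 and 5.50 FPKM in BON-1 alone, 6.60, 7.84 and 6.92 at 10:2, 6.87, 7.74 and 7.21 at 10:4, and 8.66, 8.95 and 7.74 at 10:6. The co-culture libraries again lay above BON-1 alone without overlap, while those of 10:2 and 10:4 covered nearly the same range. The difference on the log2 scale was 0.40, 0.43 and 0.62 with an SE of 0.0725 (limma adjusted p = 0.00176, 0.000553 and 3.71e-05). With the trends removed it was 0.19 at 10:2 and 0.16 at 10:4, neither called, and 0.32 at 10:6 (limma adjusted p = 0.00932). FANCD2 has 1 pseudogene that carries its name, and how the authors' counting treated reads shared with such copies is not given in the sources used here.

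The core complex had no common direction. Of its 7 tested genes, FANCM included, 1 was called higher and 1 lower at 10:2, 2 and 2 at 10:4, and 1 and 3 at 10:6. Over all genes tested the shares were 19.9% and 7.46%, 27.3% and 18.1%, and 29.7% and 18.3%. The median log2 difference of the 7 genes was -0.0262, -0.0777 and -0.0701. FANCA, a scaffold subunit, was at 24.3, 24.1 and 23.5 FPKM in BON-1 alone, 23.6, 23.3 and 23.7 at 10:2, 20.9, 21.98 and 22.9 at 10:4, and 21.2, 21.2 and 21.9 at 10:6. The libraries of 10:4 and 10:6 lay below those of BON-1 alone and those of 10:2 overlapped with them. The log2 difference was -0.12 at 10:4 and -0.15 at 10:6 with an SE of 0.0366 (limma adjusted p = 0.0166 and 0.0047), and with the trends removed -0.0478 and -0.0969, of which the second was called (limma adjusted p = 0.0377). The call at 10:4 ended without replicate 1 of BON-1 alone (adjusted p = 0.0594) or replicate 1 of 10:4 (0.0567). FANCA shares 23.6% of its exon bases with ZNF276 on the opposite strand.

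FANCG, which joins FANCA in the complex, was at 21.4, 20.7 and 20.7 FPKM in BON-1 alone, 19.1, 17.9 and 18.8 at 10:2, 18.5, 18.8 and 17.6 at 10:4, and 19.5, 17.5 and 18.1 at 10:6. All 9 co-culture libraries lay below the 3 of BON-1 alone. The difference on the log2 scale was -0.16, -0.19 and -0.18 with an SE of 0.0449 (limma adjusted p = 0.0199, 0.00538 and 0.00541). With the trends removed it was -0.0739, -0.0605 and -0.053, and none was called. At 10:2 the call also ended without replicate 1 of BON-1 alone (adjusted p = 0.0702) and without replicate 2 of 10:2 (adjusted p = 0.0646).

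FANCE, which links the core complex to FANCD2, was at 7.70, 6.61 and 7.96 FPKM in BON-1 alone, 6.75, 7.55 and 6.42 at 10:2, 7.07, 6.64 and 7.19 at 10:4, and 6.04, 6.30 and 6.71 at 10:6. The groups overlapped at every ratio, at 10:6 through the lowest library of BON-1 alone. The log2 difference of -0.19 at 10:6 (SE 0.0723) had a limma adjusted p of 0.0444, which rose above 0.05 when any of 8 libraries was left out (0.0501 to 0.16: replicates 1 and 3 of BON-1 alone, replicate 1 of 10:2, any of 10:4, and replicates 1 and 2 of 10:6), was 0.1 when genes of any level were tested and 0.557 with the trends removed. FANCC was at 9.84 ± 0.812 FPKM in BON-1 alone and at 9.93 ± 0.511, 8.72 ± 0.608 and 9.31 ± 0.236 in the co-cultures, and was not called, with or without the trends, while limma-voom called it lower at 10:4 (-0.19, adjusted p = 0.0179). FANCF, an adaptor of the complex encoded without introns, went from 5.14 ± 0.221 FPKM in BON-1 alone to 4.89 ± 0.231, 4.86 ± 0.262 and 5.08 ± 0.154 and was not called. Its transcript has a GC content of 45.4%, where most genes had higher values at 10:6, and with the trends removed it was called lower, at -0.22 on the log2 scale for both 10:4 and 10:6 (limma adjusted p = 0.0134 and 0.0147).

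FANCL, the ubiquitin ligase subunit, was at 11.4 ± 0.537 FPKM in BON-1 alone and 12.7 ± 0.896, 15.1 ± 0.724 and 14.7 ± 1.33 in the co-cultures. It was called higher at 10:4 and 10:6, by 0.38 and 0.34 (SE 0.0678), and the sign turned with the trends removed, to -0.0438 and -0.0429. FANCM, the translocase that brings the complex to DNA, stood at 0.655 ± 0.0676 FPKM in BON-1 alone, 1.09 ± 0.0983 at 10:2, 1.41 ± 0.0896 at 10:4 and 0.880 ± 0.0792 at 10:6. It was called higher at 10:2 (0.33) and 10:4 (0.54), the former not without replicate 3 of 10:2 (adjusted p = 0.0523). At 10:6 the difference of 0.18 had an adjusted p of 0.0937, and with the trends removed it was called lower, at -0.26 (limma adjusted p = 0.0233), whereas limma-voom on recovered reads called it higher, at 0.41 (adjusted p = 0.0235). FANCB, the X-linked subunit, failed the filter and is described with the other members below 1 FPKM.

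**Figure D2:**
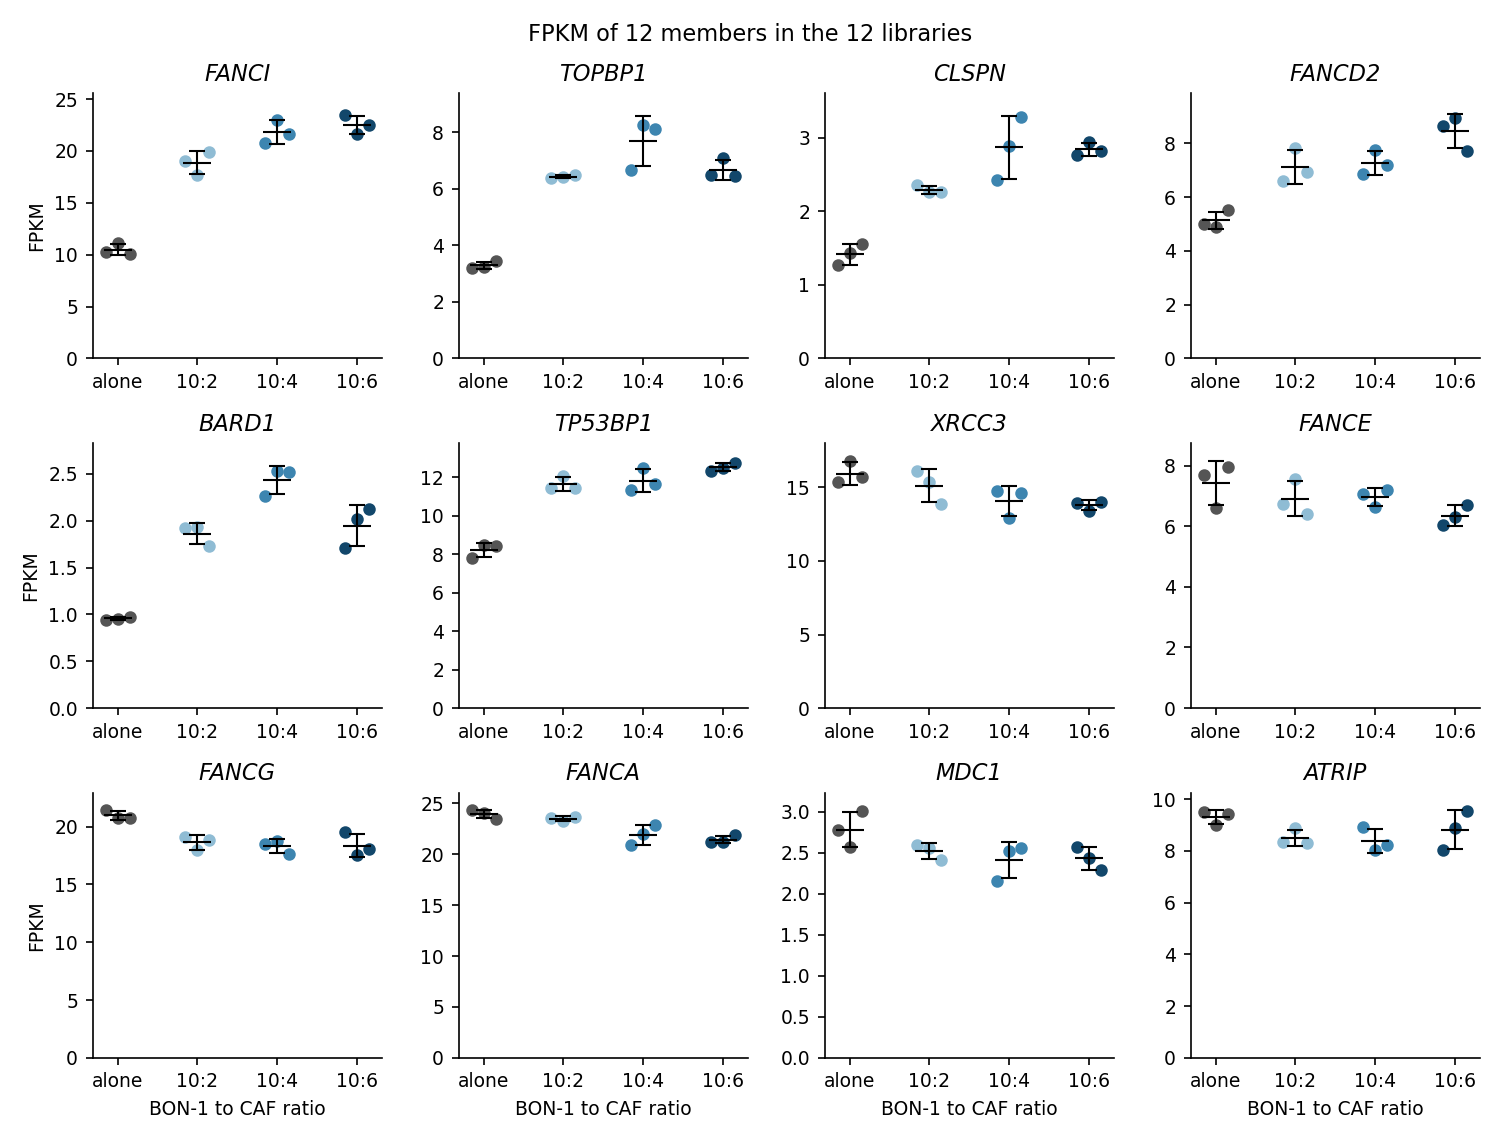
FPKM in each of the 3 libraries per group (points) with the mean and SD (bars) for the 6 members with the highest and the 6 with the lowest log2 difference at 10:6; axes start at 0 and differ between genes. All 9 co-culture libraries lie above BON-1 alone for FANCI, TOPBP1, CLSPN, FANCD2, BARD1 and TP53BP1, while the groups of FANCE, MDC1 and ATRIP overlap at 10:6. The genes were picked by their difference in the same libraries, so the separation is a description and no test. The share of all genes without overlap was not counted.

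Of the 4 tested genes of the ATR branch, 3 were called higher at every ratio, and 2 of them with the trends removed. ATR, among the 3, passed the filter through co-culture libraries alone. Over all genes tested 19.9%, 27.3% and 29.7% were higher at 10:2, 10:4 and 10:6, and 6.07%, 10.7% and 11.5% with the trends removed. TOPBP1, the activator of ATR, was at 3.20, 3.23 and 3.44 FPKM in BON-1 alone, 6.37, 6.41 and 6.48 at 10:2, 6.66, 8.26 and 8.11 at 10:4, and 6.49, 7.08 and 6.45 at 10:6. All co-culture libraries lay far above BON-1 alone, and replicate 1 of 10:4 lay apart from the other two of its group. The log2 difference was 0.79, 1.01 and 0.84 with an SE of 0.0699 (limma adjusted p = 1.43e-05, 8.06e-07 and 3.36e-06). With the trends removed it was 0.54, 0.67 and 0.47, called at each ratio (limma adjusted p = 0.00016, 1.15e-05 and 0.000131). TOPBP1 spans 133600238 to 133661941 on chromosome 3 of GRCh38.p14.

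CLSPN, whose product claspin brings CHEK1 to ATR, was at 1.27, 1.43 and 1.55 FPKM in BON-1 alone, 2.36, 2.26 and 2.27 at 10:2, 2.43, 2.89 and 3.29 at 10:4, and 2.77, 2.94 and 2.82 at 10:6. The lowest co-culture library stood well above the highest of BON-1 alone. The FPKM values of CLSPN imply a gene length of 8484 bases where its longest transcript has 4769, so its level against other genes is uncertain. The implied length was the one used for the length trend. The difference on the log2 scale was 0.45, 0.67 and 0.67 with an SE of 0.0835 (limma adjusted p = 0.00221, 6.2e-05 and 5.96e-05), and 0.25, 0.44 and 0.39 with the trends removed (limma adjusted p = 0.0403, 0.000926 and 0.00181). ATR itself, the apical kinase, rose from 0.488 ± 0.055 FPKM to 0.998 ± 0.181 at 10:2, 1.36 ± 0.123 at 10:4 and 0.968 ± 0.0344 at 10:6 (ratio of means 2.05, 2.79 and 1.99). Its log2 differences of 0.42, 0.66 and 0.40 were called, and became 0.0918, 0.20 and -0.0445 with the trends removed, none called.

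ATRIP, the partner that carries ATR to single-stranded DNA, was called at no ratio. It was at 9.49, 8.98 and 9.43 FPKM in BON-1 alone, 8.35, 8.87 and 8.30 at 10:2, 8.91, 8.02 and 8.23 at 10:4, and 8.04, 8.88 and 9.55 at 10:6. The libraries of 10:2 and 10:4 lay just below those of BON-1 alone, and those of 10:6 spanned them. No difference was called: -0.12, -0.13 and -0.0713 with an SE of 0.0601 (limma adjusted p = 0.175, 0.0875 and 0.358). Without the trends it was -0.0267, -0.00785 and 0.0615, also not called. ATRIP shares 27.9% of its exon bases with TREX1 on the same strand, so reads of both genes can be confused.

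Of the effector kinases, CHEK1 was called higher at all 3 ratios and CHEK2 at none. CHEK1, the target of ATR, was at 5.05 ± 0.2 FPKM in BON-1 alone and at 6.38 ± 0.57, 7.31 ± 0.303 and 6.89 ± 0.44, a log2 difference of 0.28, 0.46 and 0.38 (SE 0.0648). With the trends removed this was 0.0116, 0.0753 and -0.00814, none called. CHEK2, the target of ATM, stayed between 14.2 ± 1.04 and 15.6 ± 0.436 FPKM in the co-cultures, against 15.2 ± 0.942 in BON-1 alone, with log2 differences of -0.0886, -0.00305 and 0.0383. It has 4 pseudogenes that carry its name, so its level is uncertain.

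TP53BP1 and MDC1 encode chromatin mediators of the damage signal and parted. TP53BP1, which shields broken ends from resection, was at 7.78, 8.46 and 8.40 FPKM in BON-1 alone, 11.5, 12.1 and 11.4 at 10:2, 11.3, 12.5 and 11.6 at 10:4, and 12.3, 12.5 and 12.7 at 10:6. The 9 co-culture libraries lay together, far above BON-1 alone. The log2 difference was 0.46, 0.48 and 0.55 with an SE of 0.0469 (limma adjusted p = 4.19e-05, 1.09e-05 and 3.75e-06), and 0.29, 0.29 and 0.31 with the trends removed (limma adjusted p = 0.0032, 0.00153 and 0.000816). TP53BP1 shares 28.7% of its exon bases with TUBGCP4 on the opposite strand, and whether the counting used strand is not given in the sources used here.

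MDC1, which binds the phosphorylated histone at breaks, was at 2.78, 2.57 and 3.00 FPKM in BON-1 alone, 2.59, 2.55 and 2.41 at 10:2, 2.16, 2.53 and 2.55 at 10:4, and 2.58, 2.43 and 2.29 at 10:6. The groups overlapped at 10:2 and 10:6 and just missed at 10:4. Its log2 differences of -0.10, -0.15 and -0.14 (SE 0.0717) were not called, with limma adjusted p of 0.308, 0.11 and 0.13, while limma-voom on recovered reads called it lower at 10:4 and 10:6 (adjusted p = 0.0114 and 0.0173). Its differences without the trends were -0.11, -0.11 and -0.12, none called. The FPKM values of MDC1 imply a gene length of 22104 bases where its longest transcript has 7576, so its level cannot be set against other genes.

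Promoters are shown for the 5 members with an entry in the promoter table that had the highest log2 differences at 10:6, to let the start sites of genes that moved together be compared. Each line runs 5′ to 3′ on the strand of the gene from 250 bases before the annotated start to 30 bases after it, from the RefSeq promoter table of GRCh38.p14. TOPBP1 lies at chr3:133661912-133662191 on the minus strand, CLSPN at chr1:35769949-35770228 on the minus strand, FANCD2 at chr3:10026187-10026466 on the plus strand, BARD1 at chr2:214809654-214809933 on the minus strand and TP53BP1 at chr15:43510611-43510890 on the minus strand. Capitals mark matches to an E2F element, searched as TTTGGCGC, TTTCCCGC, TTTCGCGC or TTTGCCGC on both strands. E2F factors are known for driving S phase genes.
TOPBP1: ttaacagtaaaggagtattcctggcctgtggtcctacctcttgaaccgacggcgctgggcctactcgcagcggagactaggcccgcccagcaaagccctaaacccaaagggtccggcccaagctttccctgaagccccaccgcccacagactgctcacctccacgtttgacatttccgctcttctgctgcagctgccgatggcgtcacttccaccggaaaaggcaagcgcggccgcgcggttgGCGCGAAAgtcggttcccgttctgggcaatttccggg
CLSPN: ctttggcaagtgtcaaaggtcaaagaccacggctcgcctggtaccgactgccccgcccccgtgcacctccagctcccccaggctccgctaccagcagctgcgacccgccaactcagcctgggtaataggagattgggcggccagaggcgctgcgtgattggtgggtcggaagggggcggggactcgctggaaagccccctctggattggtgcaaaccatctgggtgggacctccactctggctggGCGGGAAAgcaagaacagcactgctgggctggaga
FANCD2: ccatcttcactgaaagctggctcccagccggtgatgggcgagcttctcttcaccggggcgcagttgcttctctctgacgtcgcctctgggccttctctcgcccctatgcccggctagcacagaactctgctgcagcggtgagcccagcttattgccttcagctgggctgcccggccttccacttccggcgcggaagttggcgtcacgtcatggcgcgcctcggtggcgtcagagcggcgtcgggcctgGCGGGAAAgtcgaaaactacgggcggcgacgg
BARD1: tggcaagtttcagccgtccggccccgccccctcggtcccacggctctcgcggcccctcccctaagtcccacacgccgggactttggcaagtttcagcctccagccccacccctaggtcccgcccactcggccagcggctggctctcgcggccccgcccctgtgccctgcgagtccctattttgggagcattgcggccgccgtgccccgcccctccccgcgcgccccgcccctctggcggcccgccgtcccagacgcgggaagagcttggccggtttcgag
TP53BP1: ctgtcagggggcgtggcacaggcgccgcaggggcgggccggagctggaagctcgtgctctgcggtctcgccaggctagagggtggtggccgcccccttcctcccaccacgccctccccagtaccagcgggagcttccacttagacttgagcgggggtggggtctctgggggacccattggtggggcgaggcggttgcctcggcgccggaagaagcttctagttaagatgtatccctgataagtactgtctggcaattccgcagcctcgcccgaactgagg

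The match began 7 bases before the start in TOPBP1, 5 before in CLSPN and 2 before in FANCD2, and the windows of BARD1 and TP53BP1 held none. Of the 33 members 31 had an entry in the table, and FANCI and NBN had none. For BRCA1 the bases after the annotated start were found in no transcript of the gene that was searched. Its window, counted among the 31, may therefore not be a promoter of BRCA1. An E2F match stood in 6 of the 31 (19.4%) and in 3.15% of the 27305 promoters of the table over the same window. The other 3 members with a match were XRCC2, FANCA and FANCC, of which XRCC2 was higher at 10:4 and 10:6, FANCA was lower at those ratios and FANCC was not called. The cell cycle homology element TTTGAA or TTCGAA stood in 12.9% of the members and 15.8% of all promoters, and CCAAT, the box bound by NF-Y, in 51.6% and 34.7%. These are matches of letters and no measure of binding.

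BRCA1, BARD1 and PALB2, the 3 genes tested of the 5 in this role, were called higher at every ratio. Over all genes tested 19.9%, 27.3% and 29.7% were called higher at 10:2, 10:4 and 10:6. BARD1 passed the filter through co-culture libraries alone, so its passing already required a difference. BARD1, the obligate partner of BRCA1 in a ubiquitin ligase, was at 0.945, 0.954 and 0.975 FPKM in BON-1 alone, 1.92, 1.93 and 1.73 at 10:2, 2.27, 2.53 and 2.52 at 10:4, and 1.71, 2.02 and 2.12 at 10:6. BON-1 alone lay below all co-culture libraries, and the 10:4 libraries lay above the rest. The difference on the log2 scale was 0.55, 0.81 and 0.59 with an SE of 0.0763 (limma adjusted p = 0.000352, 7.82e-06 and 8.1e-05), and with the trends removed 0.22, 0.33 and 0.15, called at 10:2 and 10:4 (limma adjusted p = 0.0491, 0.00369 and 0.123).

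BRCA1 was at 1.71 ± 0.277 FPKM in BON-1 alone and 2.30 ± 0.215, 2.87 ± 0.334 and 2.67 ± 0.048 in the co-cultures, a log2 difference of 0.29, 0.51 and 0.44 (SE 0.0915). PALB2, the bridge from BRCA1 to BRCA2, was at 2.01 ± 0.214 FPKM and then 2.89 ± 0.186, 3.15 ± 0.524 and 3.43 ± 0.458, a log2 difference of 0.37, 0.46 and 0.55 (SE 0.103). With the trends removed neither gene was called, and the difference of BRCA1 at 10:2 went to -0.00113. At 10:2 both calls ended without any 1 of 4 libraries. For BRCA1 the limma adjusted p of 0.0358 became 0.0613 to 0.137, with log2 differences of 0.205 to 0.313. For PALB2 the 0.0203 became 0.0509 to 0.0757, with log2 differences of 0.318 to 0.371. For both genes the libraries left out were replicate 1 of BON-1 alone and replicates 1 and 3 of 10:2. The fourth was replicate 2 of BON-1 alone for BRCA1 and its replicate 3 for PALB2. Without the filter on low values these p-values were 0.0883 and 0.0584.

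The genes of end resection and BLM had their highest means at 10:4, as did other members such as BRCA1, BARD1, ATR and TOPBP1. Limma called none of these differences between 10:4 and the other ratios. All 5 genes of this role were called higher at 10:4 than in BON-1 alone, 4 at 10:2 and 3 at 10:6. Their median log2 difference was 0.35 at 10:2, 0.62 at 10:4 and 0.35 at 10:6. Over all genes tested 19.9%, 27.3% and 29.7% were called higher at these ratios. RAD50, the clamp of the resection complex, was at 1.65 ± 0.0802 FPKM in BON-1 alone, 2.27 ± 0.191 at 10:2, 3.18 ± 0.573 at 10:4 and 2.11 ± 0.0755 at 10:6, and was called at 10:2 (0.30) and 10:4 (0.65). The call at 10:2 ended without any 1 of 5 libraries, the 3 of BON-1 alone and replicates 1 and 3 of 10:2 (adjusted p = 0.0631 to 0.113), and without the filter (0.0871). Its exons share 79.7% of their bases with a second annotated gene on the same strand, AC116366.3, so reads of both genes cannot be told apart. MRE11, the nuclease, was at 1.02 ± 0.104 FPKM and then 1.82 ± 0.0133, 2.06 ± 0.298 and 1.57 ± 0.257, called at each ratio, though not at 10:6 without replicate 3 of 10:6 (adjusted p = 0.0526). NBN, the third subunit, was at 2.08 ± 0.251 FPKM and then 2.62 ± 0.474, 3.40 ± 0.355 and 2.63 ± 0.326, called at 10:4 alone (0.51).

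RBBP8, which starts resection with MRE11, was at 5.75 ± 0.261 FPKM in BON-1 alone and 7.62 ± 0.113, 9.36 ± 0.94 and 7.82 ± 0.464 in the co-cultures. BLM, the helicase mutated in Bloom syndrome, was at 1.93 ± 0.0865 FPKM and then 3.02 ± 0.414, 3.87 ± 0.493 and 3.30 ± 0.449. Both were called at each ratio, and with the trends removed at 10:4 only, by 0.20 and 0.33 (limma adjusted p = 0.0402 and 0.0135). RAD50, MRE11 and NBN were then called at no ratio, with differences of -0.18, -0.0972 and -0.19 at 10:6.

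Among RAD51C, XRCC2, XRCC3 and RAD51AP1, which assist strand exchange, XRCC3 was called lower and the others higher. RAD51C was at 14.0 ± 1.47 FPKM in BON-1 alone and 18.1 ± 0.483, 18.4 ± 1.93 and 19.6 ± 0.857 in the co-cultures, called higher at each ratio (0.35, 0.37 and 0.46, SE 0.0782). XRCC2 was at 0.987 ± 0.123 FPKM and then 1.15 ± 0.134, 1.67 ± 0.148 and 1.39 ± 0.0145, called at 10:4 (0.42) and 10:6 (0.27). RAD51AP1, a cofactor of strand pairing, was at 8.11 ± 0.766 FPKM and then 9.19 ± 0.845, 11.6 ± 1.28 and 10.6 ± 1.29, called at 10:4 (0.47) and 10:6 (0.35). None of these was called with the trends removed. At 10:6 the call of XRCC2 ended without replicate 1 or 2 of BON-1 alone or replicate 2 or 3 of 10:6 (adjusted p = 0.0529 to 0.089), and that of RAD51AP1 without replicate 2 of BON-1 alone (0.0577) or replicate 2 of 10:6 (0.0574).

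XRCC3 was at 15.3, 16.8 and 15.7 FPKM in BON-1 alone, 16.1, 15.4 and 13.9 at 10:2, 14.7, 12.9 and 14.7 at 10:4, and 13.9, 13.4 and 14.0 at 10:6. The 10:4 and 10:6 libraries lay below BON-1 alone and the 10:2 libraries overlapped its lower part and reached below it. It had the lowest value of the 29 members at 10:6, a log2 difference of -0.19 (SE 0.0621, limma adjusted p = 0.022), after -0.17 at 10:4 (adjusted p = 0.0445). Without the filter on low values the adjusted p was 0.0985 at 10:4 and 0.0531 at 10:6, and with the trends removed 0.656 and 0.485. The call at 10:4 ended without any 1 of 8 libraries (adjusted p = 0.0516 to 0.177: any of BON-1 alone or 10:6, and replicate 2 of 10:2 or of 10:4), and that at 10:6 without replicate 2 of BON-1 alone (0.0881) or replicate 2 of 10:6 (0.0714). Its transcript has the highest GC content of the members, 63.8%, and 76.7% of its exon bases are shared with KLC1 on the opposite strand.

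FANCB, BRIP1, BRCA2 and ATM did not reach 1 FPKM in any of the 12 libraries and were left out of the main test. Their reads over the 3 libraries of a group gave a pooled FPKM with an exact Poisson interval of 95%, which covers counting error only. BRCA2, the partner of PALB2, had 133 reads in BON-1 alone, or 0.227 FPKM (0.190 to 0.269), against 185 at 10:2, or 0.423 (0.364 to 0.488), 285 at 10:4, or 0.626 (0.556 to 0.703), and 200 at 10:6, or 0.409 (0.354 to 0.470). ATM had 193 reads in BON-1 alone, or 0.273 FPKM (0.236 to 0.314), and then 0.425 (0.371 to 0.484), 0.604 (0.541 to 0.673) and 0.491 (0.436 to 0.551). For both genes the interval of BON-1 alone lay below that of every co-culture, and 10:4 had the highest value. How many genes of like level had such intervals was not counted. Over genes with at least 50 reads in a pair of libraries of 1 group, chi-square per degree of freedom was 1.66 to 4.07. That is more than counting error alone gives, so these intervals may be too narrow.

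BRIP1, the helicase bound to BRCA1, was at 0.204 FPKM (0.163 to 0.252) in BON-1 alone and at 0.341 (0.279 to 0.412), 0.441 (0.372 to 0.519) and 0.377 (0.315 to 0.446) in the co-cultures, again with no overlap of intervals between BON-1 alone and the rest. FANCB was at 0.286 FPKM (0.224 to 0.360) in BON-1 alone and at 0.431 (0.343 to 0.535), 0.379 (0.298 to 0.475) and 0.320 (0.248 to 0.406), and a single library of BON-1 alone held 8 of its reads. When genes of any level were tested, limma called BRCA2 higher at 10:4 (adjusted p = 0.00147), ATM at 10:4 and 10:6 (0.00313 and 0.0254), BRIP1 at 10:4 and 10:6 (0.013 and 0.0496) and FANCB at none. Though its intervals did not overlap, BRCA2 was not called at 10:2 or 10:6 (limma adjusted p = 0.0837 and 0.0649), nor was BRIP1 at 10:2 (0.161). That test called 13 of all 33 members higher and 1 lower at 10:2, 23 and 2 at 10:4, and 19 and 2 at 10:6. Over the 30723 genes in it the shares were 7.24% and 1.84%, 12% and 6.06%, and 12.8% and 6.37%. The GC content of these 4 transcripts was 36.3% to 39.1%. Tested genes with a GC content near 37% and near 39% had median log2 differences of 0.37 and 0.42 at 10:6. No values with the trends removed were made for these 4 members.

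**Figure D3:**
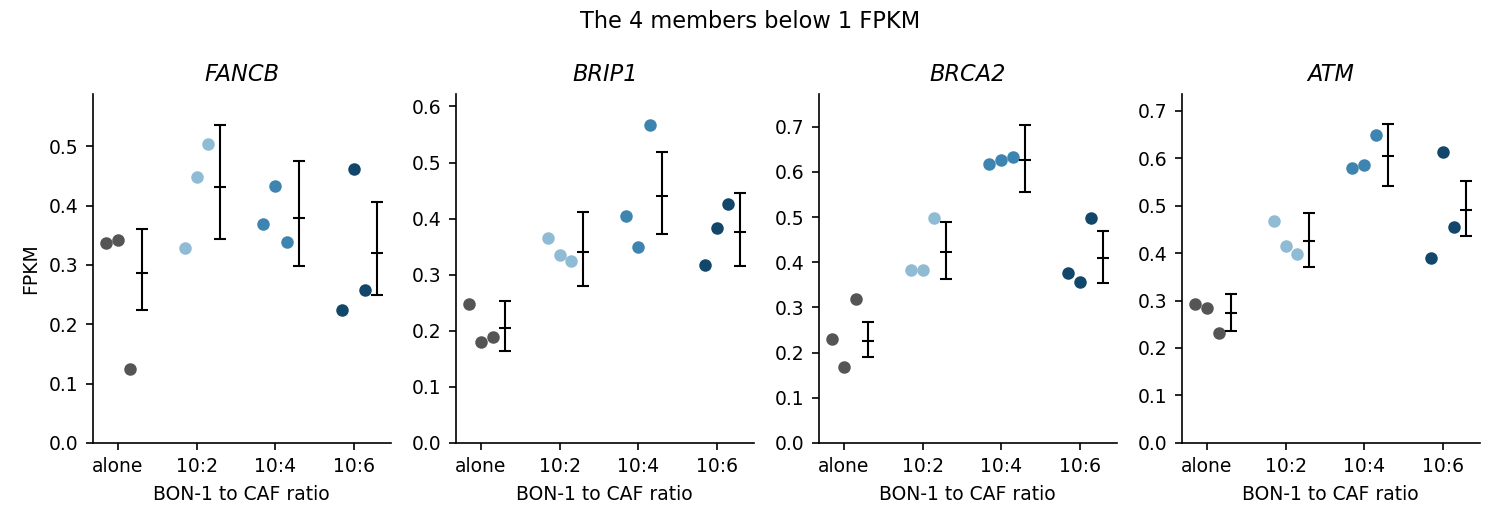
FPKM of the 4 members below 1 FPKM in each of the 3 libraries per group (points), with the pooled FPKM of the group and its exact Poisson interval of 95% (bars, set to the right); axes start at 0 and differ between genes. For BRCA2, ATM and BRIP1 the interval of BON-1 alone, up to 0.269, 0.314 and 0.252, lies below those of all co-cultures, and for FANCB the intervals overlap. The intervals cover counting error only and may be too narrow. How many genes of like level had such intervals was not counted.

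The members are a set of low GC content. Their median was 41.9%, and 26 of 33 lay under the median of the genes tested, 49.8%. Within the 29 tested members Spearman's rho between GC content and the log2 difference was -0.504 at 10:2, -0.638 at 10:4 and -0.422 at 10:6, as a description. FANCI (43.4%), TOPBP1 (42.8%), CLSPN (44.8%), FANCD2 (44.0%), TP53BP1 (45.7%), BARD1 (38.0%) and PALB2 (42.8%) lay above the middle 50% of genes of like GC content at 10:6. RAD51AP1, MRE11, FANCL, ATR, RBBP8, BRCA1, CHEK1, BLM and RAD51C, of 36.1% to 42.2%, lay within it. XRCC2 (0.27), called higher, lay below the middle 50%, as did FANCM (0.18), NBN (0.24), RAD50 (0.23) and FANCF (-0.012), which were not called at 10:6. The band holds tested genes of every level, and on this scale changes of low genes appear smaller than they were. The places of low members such as FANCM, XRCC2, NBN, RAD50, ATR and MRE11 therefore depend on the scale. By limma-voom on recovered reads FANCM was at 0.41, NBN at 0.36 and RAD50 at 0.36. The slope of a library's log2 level, relative to the mean of all 12 libraries, was 0.147 to 0.156 for each 10 percentage points of GC content in BON-1 alone and -0.0986 to 0.0259 in the co-cultures. The trend separated BON-1 alone from all co-culture libraries, so its part in the members' differences cannot be told apart from that of co-culture.

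**Figure D4:**
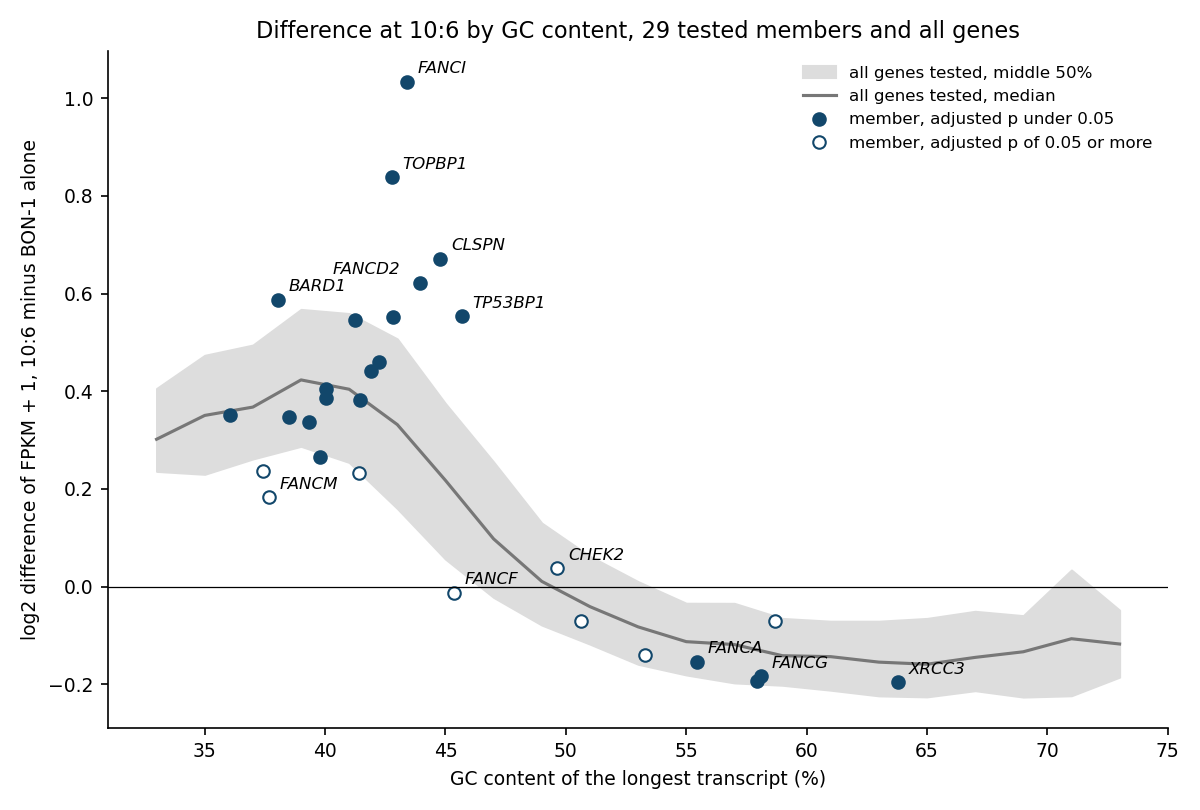
Log2 difference of FPKM + 1 at 10:6 from BON-1 alone against the GC content of the longest transcript, for the 29 tested members (points, filled where the adjusted p is under 0.05) and for all genes tested (line, median; band, middle 50%). FANCI at 1.03 and TOPBP1 at 0.84 stand above the band, while the members called lower lie inside it at a GC content of 55.4% to 63.8%.

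Between the co-culture ratios few differences passed the test, here of 29 members in each of 3 comparisons that share libraries pairwise. From 10:2 to 10:4 limma called 0 members, and 2.88% of all genes tested in either direction. Limma-voom on recovered reads called 7.85% of all genes and 9 members: FANCL, FANCI, BARD1, RAD50, RBBP8, RAD51AP1, ATR, TOPBP1 and CLSPN, each higher at 10:4. From 10:4 to 10:6 limma called 0, against 0.331% of all genes, and limma-voom called 3, FANCM, RAD50 and ATR, each lower at 10:6, against 2.07%. From 10:2 to 10:6 limma called 1, FANCI, against 6.97% of all genes. Limma-voom called 4, FANCI, FANCD2 and CLSPN higher and FANCA lower at 10:6, against 11.6%, a share near that of the members. No trend was removed from the reads. Spearman's rho between GC content and the log2 difference was, in the same order, -0.501, 0.00675 and -0.476 over 12394 genes. Within the 29 members it was -0.837, 0.66 and -0.151, as a description. With the trends removed limma called 0 members in each comparison, and the members' median was 0.0637, -0.0474 and -0.0197.

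FANCI at 10:6 exceeded 10:2 by 0.24 on the log2 scale (SE 0.0553, limma adjusted p = 0.027), and all 3 libraries of 10:6 lay above those of 10:2. The call ended without replicate 1 of 10:2 (adjusted p = 0.0542), replicate 2 of 10:2 (0.105), replicate 1 of 10:6 (0.0633) or replicate 3 of 10:6 (0.0852), and with the trends removed (0.14, adjusted p = 0.166). The members' median log2 difference was 0.17 from 10:2 to 10:4, -0.0406 from 10:4 to 10:6 and 0.0468 from 10:2 to 10:6, against 0.00534, 0.0111 and 0.0233 over all genes tested. At 10:4 the members of end resection and BLM lay 0.11 to 0.35 above 10:2, and from 10:4 to 10:6 their differences were -0.42 to -0.18, none of which limma called.

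The other genes of these pathways were taken as lists. Over all genes tested, 19.9% were called higher and 7.46% lower at 10:2, 27.3% and 18.1% at 10:4, and 29.7% and 18.3% at 10:6. With the trends removed 11.5% were higher and 14.0% lower at 10:6. These shares apply to every list below. Of 35 further Fanconi and recombination genes, 33 were in the table and 29 were tested. Of these 7 were higher and 0 lower at 10:2, 8 and 5 at 10:4, and 12 and 5 at 10:6, with medians of 0.0158, -0.0244 and 0.000779. At 10:4 both shares of this list were near those of all genes. SFR1, a cofactor of strand exchange, was at 4.60, 4.07 and 3.84 FPKM in BON-1 alone and at 6.09, 7.51 and 7.86 at 10:6, with no overlap and a log2 difference of 0.65 (limma adjusted p = 6.01e-05). EXO1, an exonuclease of resection, was at 5.98, 5.67 and 5.32 FPKM in BON-1 alone and at 8.11, 9.55 and 10.0 at 10:6, also without overlap, a log2 difference of 0.62 (limma adjusted p = 7.1e-05). Both kept the call with the trends removed, at 0.27 (limma adjusted p = 0.0139 and 0.0109), where the list had 4 higher and 5 lower.

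Of 28 further checkpoint and damage signalling genes, all tested, 11 were higher and 2 lower at 10:2, 14 and 7 at 10:4, and 15 and 7 at 10:6, with medians of 0.14, 0.22 and 0.23. Among those that rose at 10:6 were BRCC3, a deubiquitinase of the BRCA1-A complex, which went from 1.35 ± 0.137 FPKM to 2.66 ± 0.223 (0.64, limma adjusted p = 4.75e-05), and RAD17, the loader of the clamp that TOPBP1 binds, from 2.28 ± 0.107 to 3.70 ± 0.538 (0.52, limma adjusted p = 0.000515). With the trends removed the list had 2 higher and 5 lower at 10:6, BRCC3 was at 0.21 (limma adjusted p = 0.0374) and RAD17 at 0.12 (limma adjusted p = 0.269).

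Non-homologous end joining, the rival route of break repair, had 8 genes tested, with 3 higher and 0 lower at 10:2, 4 and 0 at 10:4, and 3 and 1 at 10:6 (medians 0.0970, 0.28 and 0.15). PRKDC, its kinase, was at 14.9, 13.9 and 14.4 FPKM in BON-1 alone and at 21.6, 22.6 and 23.5 at 10:6, a log2 difference of 0.62 (limma adjusted p = 3.7e-06). XRCC5, the larger Ku subunit, was at 148, 148 and 147 FPKM in BON-1 alone and at 224, 220 and 224 at 10:6, a log2 difference of 0.59 (limma adjusted p = 9.5e-08). In neither gene did the groups overlap, and with the trends removed both calls held, at 0.36 and 0.33 (limma adjusted p = 4.02e-05 and 5.7e-06), where the list had 2 higher and 2 lower at 10:6 and a median of -0.00195.

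Of 20 cell cycle markers, 10 were higher and 4 lower at 10:2, 11 and 8 at 10:4, and 11 and 7 at 10:6, with medians of 0.11, 0.13 and 0.13. Their summed FPKM was 1310 to 1322 in BON-1 alone, 1333 to 1352 at 10:2, 1348 to 1355 at 10:4 and 1318 to 1324 at 10:6. TOP2A, the topoisomerase of dividing cells, went from 6.91 ± 0.454 FPKM to 14.7 ± 0.705 at 10:6 (0.99) and BUB1, a mitotic checkpoint kinase, from 16.4 ± 0.547 to 27.7 ± 0.146 (0.72), and both were called with the trends removed (0.55 and 0.38), where the list had 3 higher and 7 lower at 10:6.

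Markers of fibroblasts rose with the share of CAFs in the culture. The summed FPKM of 19 fibroblast markers was 160.7 to 165.8 in BON-1 alone, 197.7 to 201.7 at 10:2, 284.7 to 294.1 at 10:4 and 371.0 to 375.1 at 10:6. None of the 19 was at 0 in any group, and of 15 tested 9, 14 and 14 were called higher and 0 lower. COL1A2 and SPARC, matrix genes of fibroblasts, had log2 differences of 2.65 and 2.56 at 10:6. The part of fibroblast RNA in the members' differences was not tested. In RNA of a mixed sample a change in the share of cells and a change in RNA per cell cannot be told apart. The summed FPKM of 10 leukocyte and endothelial markers was 45.16 to 49.38 over the 12 libraries, with CD3E at 0 in every group; of 3 tested, KDR was higher (0.25) and CDH5 lower (-0.12) at 10:6. The 10 neuroendocrine markers of BON-1 summed to 2590 to 2664 FPKM in BON-1 alone and to 2809 to 2986 in the co-cultures; of 7 tested 2 were higher and 5 lower at 10:6, among them SCG2 (0.91) and CHGA (-0.47), and NCAM1 was at 0 in all groups but 10:4.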

How the data were processed

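RNA-seq of 12 libraries in 4 groups of 3 was taken from 1 deposited table of FPKM values, made by the authors with HISAT2, featureCounts and hg38, per the submitters' processing notes; the sources used here give neither versions nor the strand setting. FPKM does not correct for base composition. The members and gene lists were chosen with earlier results of these data known. limma 3.58.1 (R 4.3.3) was fitted to log2(FPKM + 1) over 13312 genes that reached 1 FPKM in 3 or more libraries, with 4 group means, all 12 libraries and a variance trend, and p-values were adjusted by Benjamini-Hochberg over all genes. Values in every library are given for FANCI, TOPBP1 and the 6 highest and 6 lowest log2 differences at 10:6; of other lists the 2 called genes with the largest difference at 10:6 are named. Of 267349 nonzero values 99.9738% were whole multiples of 1 read (relative tolerance 1e-06), which gave read counts for limma-voom and for the Poisson intervals. No molecular identifiers are described, so intervals cover counting error only. For trends, natural splines (5 degrees of freedom) on GC content and length were removed from each library for 12394 genes (93.1%). Figures used matplotlib 3.10.9 and tables pandas 2.3.3. The code was tested on simulated data. Same-numbered libraries did not deviate together, so replicate numbers were not used as pairs.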

Additional observations from a re-analysis of the deposited data

How the results depend on the processing

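In the comparisons with BON-1 alone, members called higher outnumbered those called lower under every alternative run. Apart from runs without 1 library, this also held over all genes, except at 10:4 and 10:6 with quantile normalization or the trends removed. The number of members called higher moved most on removing the GC content and length trends. With those trends removed the members higher and lower were 5 and 0 at 10:2, 7 and 1 at 10:4, and 5 and 3 at 10:6. Over all genes the shares were 6.07% and 5.59%, 10.7% and 12.5%, and 11.5% and 14.0%. Between 10:6 and 10:2, 0 members differed. With the replicate block as well they were 4 and 0, 7 and 1, and 5 and 2, with 0 between 10:6 and 10:2. Over the 12394 genes that fit called 669 higher and 565 lower, 1237 and 1370, and 1312 and 1564. The cause of these and the following shifts was not tested. Quantile normalization gave 2, 7 and 7 lower at 10:2, 10:4 and 10:6, and 2 between 10:6 and 10:2. Median-of-ratios scaling also gave 2 between 10:6 and 10:2. Limma-voom gave 5 lower at 10:4, and 9, 3 and 4 between 10:4 and 10:2, 10:6 and 10:4, and 10:6 and 10:2. Fitting only the groups compared gave 1 lower at 10:4 and 0 between 10:6 and 10:2. No filter gave 2 lower at 10:6 and 0 between 10:6 and 10:2, and FPKM of at least 1 in all 12 libraries gave 2 between 10:4 and 10:2.

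With 1 library left out at a time, 12 to 16 members were higher at 10:2, 20 at 10:4 and 15 to 18 at 10:6. The members lower were 0 to 1 at 10:2 (0 without replicate 1 of BON-1 alone or replicate 2 of 10:2), 1 to 3 at 10:4 (1 without replicate 1 of BON-1 alone) and 2 to 4 at 10:6 (2 without replicate 2 of 10:6). Between ratios 0 to 2 (10:4 and 10:2), 0 to 1 (10:6 and 10:4) and 0 to 2 (10:6 and 10:2) were called.

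Among differences that turned sign with the trends removed, with the same values with and without the replicate block, those called before or after were FANCL (-0.0438 at 10:4 and -0.0429 at 10:6), FANCM (-0.00119 at 10:2 and -0.26 at 10:6), BRCA1 (-0.00113 at 10:2) and, at 10:6, MRE11 (-0.0972), RBBP8 (-0.015), XRCC2 (-0.13), RAD51AP1 (-8.4e-05), ATR (-0.0445) and CHEK1 (-0.00814). Others that were called on neither scale turned as well, among them NBN and RAD50 at 10:6. The trend was fitted over tested genes of every level, while the differences of low genes appear smaller on this scale than they were. Signs of low members with the trends removed therefore depend on the scale too.

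The replicate numbers do not pair the libraries: deviations of same-numbered libraries correlated at -0.0427 to 0.0458 (18 pairs) and those of other libraries at -0.053 to 0.0622 (36 pairs). With the replicate block 14 members were higher and 1 lower at 10:2, 20 and 2 at 10:4, and 18 and 3 at 10:6, and 0 differed between the ratios in any of the 3 comparisons. Over the 13312 genes tested that fit called 2490 higher and 750 lower at 10:2, 3543 and 2196 at 10:4, and 3821 and 2283 at 10:6. Depth limits the 4 members below 1 FPKM, with 8 to 129 reads in a library.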
